A study of Mus musculus with 6 samples.

Results

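Fn1, Tnc, Tnxb, Thbs1, Tgfb1 and Cd44 were the 6 genes examined here, and they were chosen by name through the platform annotation of a small expression array. They had 7 of its 223 probes, because fibronectin had 2, which were kept apart as probe 9D and probe 4D. The arrays were hybridised with 3 µg of total RNA from cryosections of soleus, a slow postural calf muscle, of C57Bl/6 mice. All 6 samples formed 1 group of control mice, numbered 1 to 6. The titles add "HUR wt", which the labels do not expand, and they state no age or treatment. Whether the arrays came from different mice is not stated either, so p-values measure the spread between these samples, which may be technical. In whole muscle, fewer cells of a type and less RNA per cell cannot be told apart.

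These genes belong to the adhesive part of the extracellular matrix. Fibronectin (Fn1), tenascin C (Tnc), tenascin X (Tnxb) and thrombospondin 1 (Thbs1) are secreted glycoproteins that link collagens, growth factors and cell surface receptors such as integrins. Transforming growth factor beta 1 (Tgfb1) is secreted in a latent form, is stored in the matrix, and induces matrix genes in fibroblasts once it is released. Thrombospondin 1 is among the proteins that can activate it, and Cd44 is a cell surface receptor for the matrix polysaccharide hyaluronan. In muscle, tenascin C is best known at the myotendinous junction and after loading or injury, and tenascin X in the connective tissue around fibres.

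The start site of Tgfb1 is shown because it was the steadiest of these genes relative to the array median. That of Tnc is shown because it had the most negative coefficient with Tgfb1, in a relation that did not pass the test. RefSeq promoter windows (GRCm38.p6) were matched by symbol for 4 of the 6 genes, and Fn1 and Thbs1 had no entry. The Tgfb1 stretch is the 150 bases before its start, chr7:25686852-25687001 on the plus strand, with GGGCGG boxes of either strand in capitals. The Tnc stretch runs from 40 to 11 bases before the downstream of its 2 annotated starts, chr4:64046947-64046976 on the minus strand, with TATAA in capitals.
Tgfb1: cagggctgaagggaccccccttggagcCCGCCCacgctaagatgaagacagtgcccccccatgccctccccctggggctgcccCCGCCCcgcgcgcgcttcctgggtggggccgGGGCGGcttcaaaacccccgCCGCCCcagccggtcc
Tnc: aaggagctccctaTATAAgcctgccaaagc
The 250 bases before the Tgfb1 start were 75.2% G or C, against a median of 52.4% over all 32851 RefSeq windows, and held 5 GGGCGG boxes (CCGCCC on the other strand), 4 of them in the stretch shown. At least 1 such box was found in 32.7% of all windows. The Tgfb1 window held no TATAA on either strand (TTATA), a motif present in 22.8% of windows. In the Tnc stretch TATAA began 27 bases before the start, while the nearest TATAA to the other annotated Tnc start began 126 bases before it. The stretch was chosen for the motif, and the region from 40 to 21 bases before the start held TATAA on the gene's strand in 3.31% of all windows. The 250 bases before that Tnc start were 51.2% G or C. These letter matches describe the sequence and were not tested for binding.

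Detection was clear for 5 of the 7 probes. An array's noise bound was taken as the size of its most negative intensity, and values below it have no reliable size. Probe 9D of Fn1 and the probes of Tnc, Tnxb, Thbs1 and Tgfb1 lay above the bound on all 6 arrays, which held for 106 of the 223 probes (47.5%). Probe 9D was the farthest from the bound, with 10.9 times the bound in control 2 and 31.4 to 53.3 times in the others. Tgfb1 had the lowest value of the 5, 1.94 times the bound in control 2, and reached 4.38 to 6.94 times elsewhere, where Thbs1 was closer to the bound in controls 3 and 4. Tnc reached 3.52 to 21.4 times the bound, Tnxb 3.53 to 22.6 times and Thbs1 3.06 to 10.3 times. For all 5 the lowest of these ratios was that of control 2, the array with the fewest probes above its bound, 109 against 143 to 166.

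Cd44 and the second fibronectin probe were at the limit of the measurement. The Cd44 intensities in controls 1 to 6 were 0.0096, -0.0018, 0.0024, 0.0110, 0.0026 and 0.0022, and the bounds were 0.0034, 0.0062, 0.0033, 0.0087, 0.0023 and 0.0018. Cd44 was thus above the bound on 4 arrays, by 2.82 times in control 1 and by 1.13 to 1.26 times in controls 4, 5 and 6. It fell below 0 in control 2, so it has no level on the log scale there, and neither its spread nor its relation with Tgfb1 could be tested over the 6 arrays. On the other 5 its log2 level relative to the array median, over probes above 0 on at least 4 arrays, was -0.25 in control 1 and -2.73, -1.98, -2.60 and -2.39 in controls 3 to 6, an SD of 1.01. Control 1 was thus the highest of the 5, and no coefficient is given for Cd44 because it lacks a level in control 2. Probe 4D of Fn1 gave 0.0011, -0.0020, 0.0011, 0.0056, 0.0014 and 0.0001, below the bound on all 6 arrays, while 47 of all 223 probes (21.1%) were above it on none. The annotation assigns both fibronectin probes to the same source sequence, yet probe 9D gave 0.1295, 0.0675, 0.1035, 0.2909, 0.1226 and 0.0581. Results for fibronectin below are those of probe 9D alone.

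**Figure D1:**
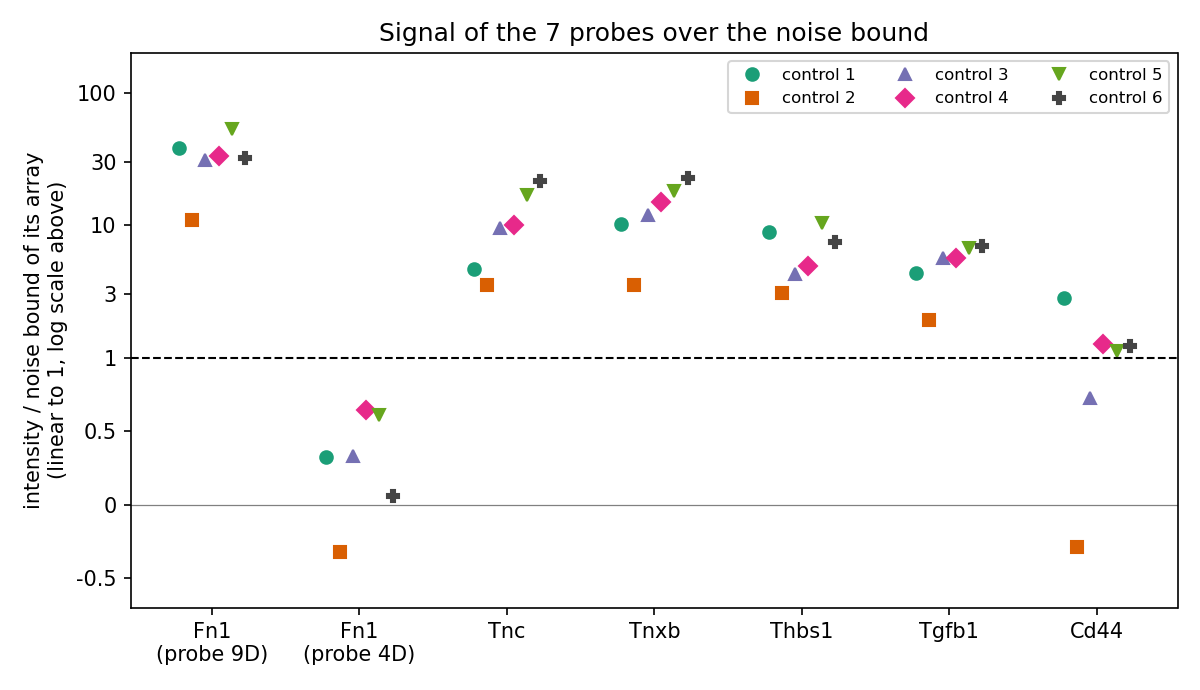
Intensity of each of the 7 probes divided by the noise bound of its array (vertical axis, linear up to 1 and logarithmic above; dashed line at 1), 1 symbol per control array. Probe 9D of Fn1, Tnc, Tnxb, Thbs1 and Tgfb1 lie above 1 on all 6 arrays, Cd44 on 4 arrays and probe 4D of Fn1 on 0.

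Levels are log2 intensities relative to the median of the same array over the 152 genes and unnamed probes that were above 0 on all 6 arrays. Since probes differ in affinity, levels of different genes are not ranked. Fn1, which cells bind through integrins, had levels of 3.01, 2.24, 2.10, 2.29, 2.58 and 1.86 in controls 1 to 6, a mean of 2.35 ± 0.40 (SD, n = 6). Control 1 was the highest and control 6 the lowest, 2.22-fold apart. Thbs1, the thrombospondin that binds the receptors Cd36 and Cd47, had levels of 0.91, 0.41, -0.77, -0.46, 0.21 and -0.26, with a mean of 0.01 ± 0.62. It was also highest in control 1 and was lowest in control 3, and its 3.22-fold range was the widest of the 5 genes. Before centring on the array median its intensities also differed 3.22-fold, then the narrowest range, against 4.08-fold for Tgfb1 and 5.91-fold for Tnxb.

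The 2 tenascins had their highest levels in control 6. Tnc had levels of -0.03, 0.61, 0.38, 0.56, 0.91 and 1.27, with a mean of 0.62 ± 0.44 (SD, n = 6). Control 1, where Fn1 and Thbs1 were highest, was the lowest array for Tnc, and the range was 2.45-fold. Tnxb, whose loss in humans causes a form of Ehlers-Danlos syndrome, had levels of 1.12, 0.62, 0.71, 1.13, 1.01 and 1.34, with a mean of 0.99 ± 0.27. Its lowest arrays were controls 2 and 3, and its range was 1.66-fold.

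Tgfb1 had levels of -0.11, -0.25, -0.38, -0.28, -0.40 and -0.36, with a mean of -0.30 ± 0.11 (SD, n = 6). Its highest array, control 1, was 1.22-fold above its lowest, control 5. Before centring, its intensities of 0.0149, 0.0120, 0.0185, 0.0490, 0.0156 and 0.0125 differed 4.08-fold, with the highest in control 4, the brightest array. The steady level of Tgfb1 thus describes a gene whose signal followed the median of its array. The control-1 maximum that Fn1, Thbs1 and Tgfb1 shared was found for 51 of all 152 features (33.6%), and the control-1 minimum of Tnc for 30 (19.7%).

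**Figure D2:**
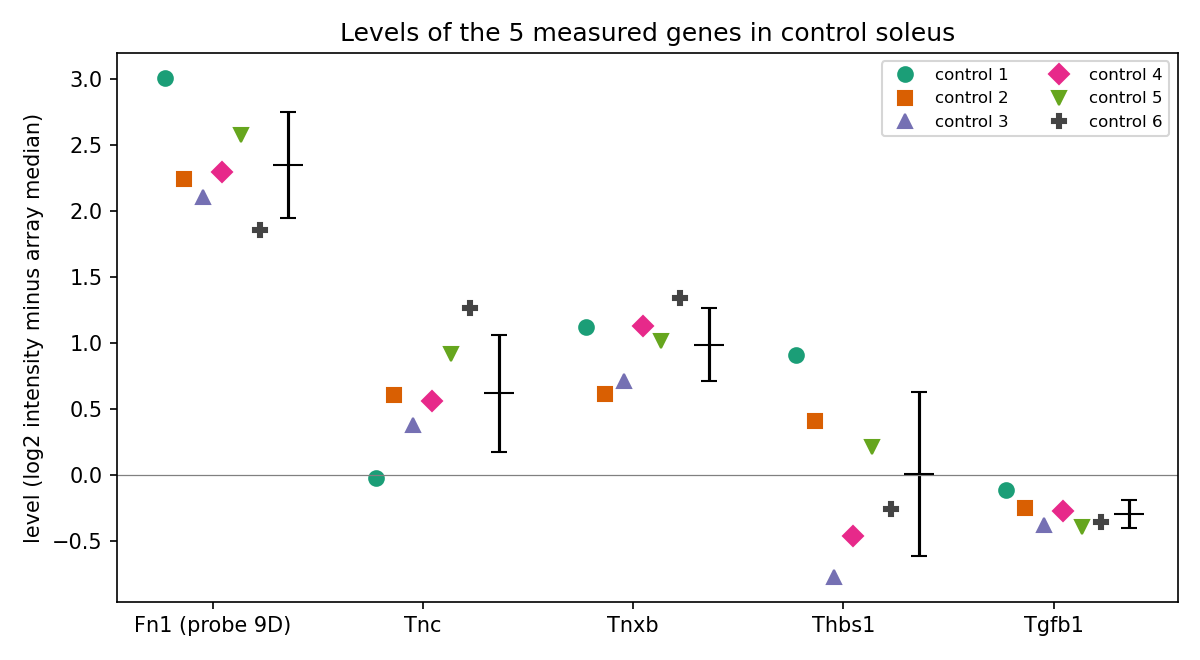
Level of each of the 5 genes measured on all arrays (log2 intensity minus the array median), 1 symbol per control array, with the mean and SD of the 6 arrays in black beside them. Control 1 is the top symbol for Fn1, Thbs1 and Tgfb1 and the bottom one for Tnc, and the Tgfb1 symbols lie within 1.22-fold of each other.

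The spread of each gene was set against that of genes of like intensity. Each variance was tested against its limma prior by a one-sided F test. Of the 5 genes 0 varied more, at an adjusted or an unadjusted p of 0.05. In the same test 2 of 152 features were called after adjustment (1.32%), and 9 had an unadjusted p at or under 0.05 (5.92%). Thbs1 was the most variable, with the 95th smallest SD of 152 and a variance 1.99 times its prior (adjusted p = 0.911 in limma). The SDs of Tnc and Fn1 ranked 57 and 48 of 152, close to and below the median SD of 0.54, and that of Tnxb ranked 16.

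Tgfb1 had the second smallest SD of the 152 features. Its variance was 0.061 times the prior, with an unadjusted p of 0.00376 in limma's test for a smaller spread. It did not pass after adjustment over all features (adjusted p = 0.223), nor did any of the other 4 members. Of the 152 features, 0 were called (0.00%), and 9 had an unadjusted p at or under 0.05 (5.92%), Tgfb1 being the 1 member among them. The adjusted p for Tgfb1 lay between 0.186 and 0.763 over all alternatives. The SD was 0.21 when the filter asked for a signal above 0 on only 4 arrays, 0.16 when arrays were centred on genes above the bound throughout, and 0.75 without centring. Without control 1 it was 0.07, the lowest value with 1 array left out.

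**Figure D3:**
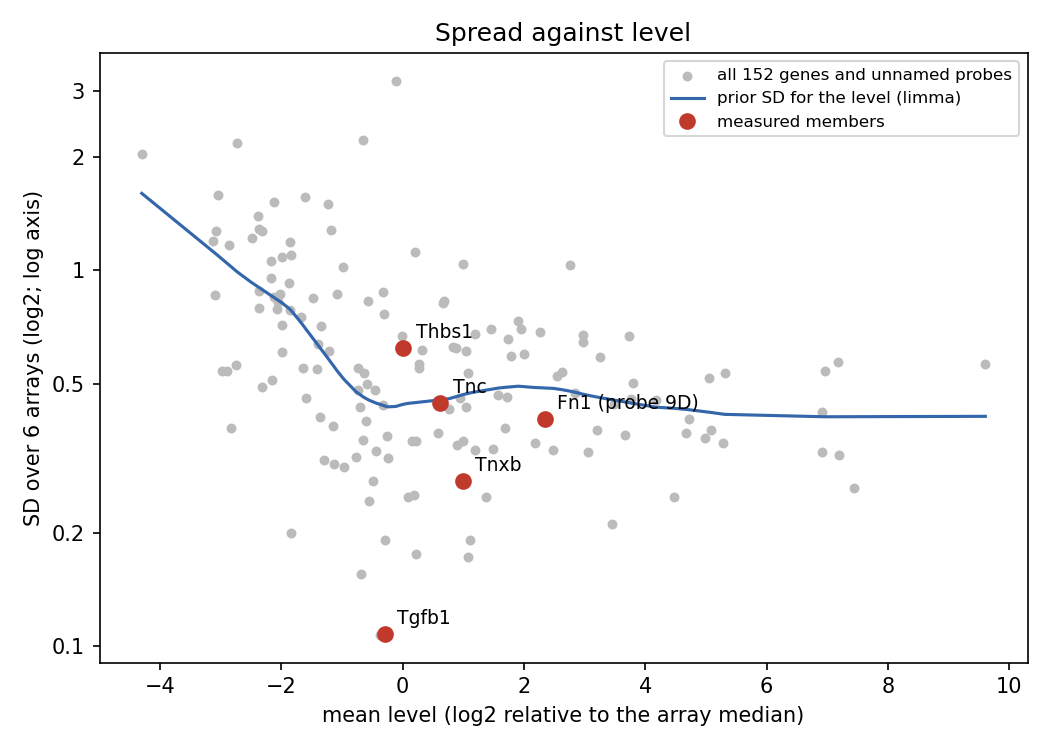
SD over the 6 arrays (log2, log axis) against mean level for all 152 genes and unnamed probes (grey), with the prior SD that limma estimated for each level (line) and the 5 members in red. Tgfb1 lies at the lower edge with an SD of 0.11, and Thbs1, with 0.62, is the only member above the line.

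Whether the glycoproteins followed Tgfb1 was examined over the 6 arrays with exact permutation tests over all 720 pairings. Adjustment covered all 11476 pairs among the 152 features. The smallest p that the exact permutation test could give was 0.00139 for r and 0.00278 for rho. After adjustment over so many pairs, even a perfect relation could pass only if many other pairs also had small p. A relation that did not pass is therefore not shown to be absent. Of 10 relations, 4 with Tgfb1 and 6 among the glycoproteins, 0 passed, and 0 had an unadjusted p at or under 0.05. Among all pairs 0 passed after adjustment (0.00%), and 17.0% had an unadjusted p at or under 0.05. Values of r of 0.67 or more in size were common, being found in 33.9% of all pairs.

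Fn1 and Thbs1 had positive coefficients with Tgfb1 that did not pass the test. For Thbs1 and Tgfb1, Pearson's r was 0.71 (p = 0.0986 by exact permutation, 0.371 after adjustment) and Spearman's rho 0.60 (p = 0.242 by exact permutation, 0.585 after adjustment). Without controls 1 and 3, the arrays farthest from the median Thbs1 level, r was 0.01. It was 0.29 without control 1 alone, 0.68 without control 3 alone, and 0.26 with the filter that asked for a signal above 0 on only 4 arrays. For Fn1 and Tgfb1, r was 0.67 (p = 0.136 by exact permutation, 0.422 after adjustment) and rho 0.31 (p = 0.564, 0.829 after adjustment). Without controls 1 and 6 its r was -0.31, without control 1 alone -0.019, and after quantile normalization 0.11. It was 0.85 with only genes above the bound on all arrays, 0.90 without the dimmest genes and 0.91 without centring, and did not pass under these settings either. Control 1 stood highest for all 3 genes.

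The tenascins had coefficients with Tgfb1 that moved with some of the processing, and neither passed the test under any setting. For Tnc and Tgfb1, r was -0.72 (p = 0.108 by exact permutation, 0.387 after adjustment) and rho -0.49 (p = 0.356, 0.695 after adjustment). Its r was -0.23 without controls 1 and 6, -0.12 with the filter of at least 4 arrays above 0, and 0.79 without centring, where both genes carry the brightness of the array. Under the other processing r stayed negative. It was -0.63 after quantile normalization, -0.70 after cyclic loess, -0.73 with the noise bound added and -0.81 without the dimmest genes. For Tnxb and Tgfb1, r was 0.06 (p = 0.897 by exact permutation, 0.953 after adjustment) and rho 0.03 (p = 1 before and after adjustment). The sign of the Tnxb relation changed with quantile normalization, with the noise bound added and without control 1 or 3, and r was -0.08 without controls 2 and 3. The same r was 0.75 with the filter of at least 4 arrays above 0, 0.40 with only genes above the bound on all arrays and 0.94 without centring.

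**Figure D4:**
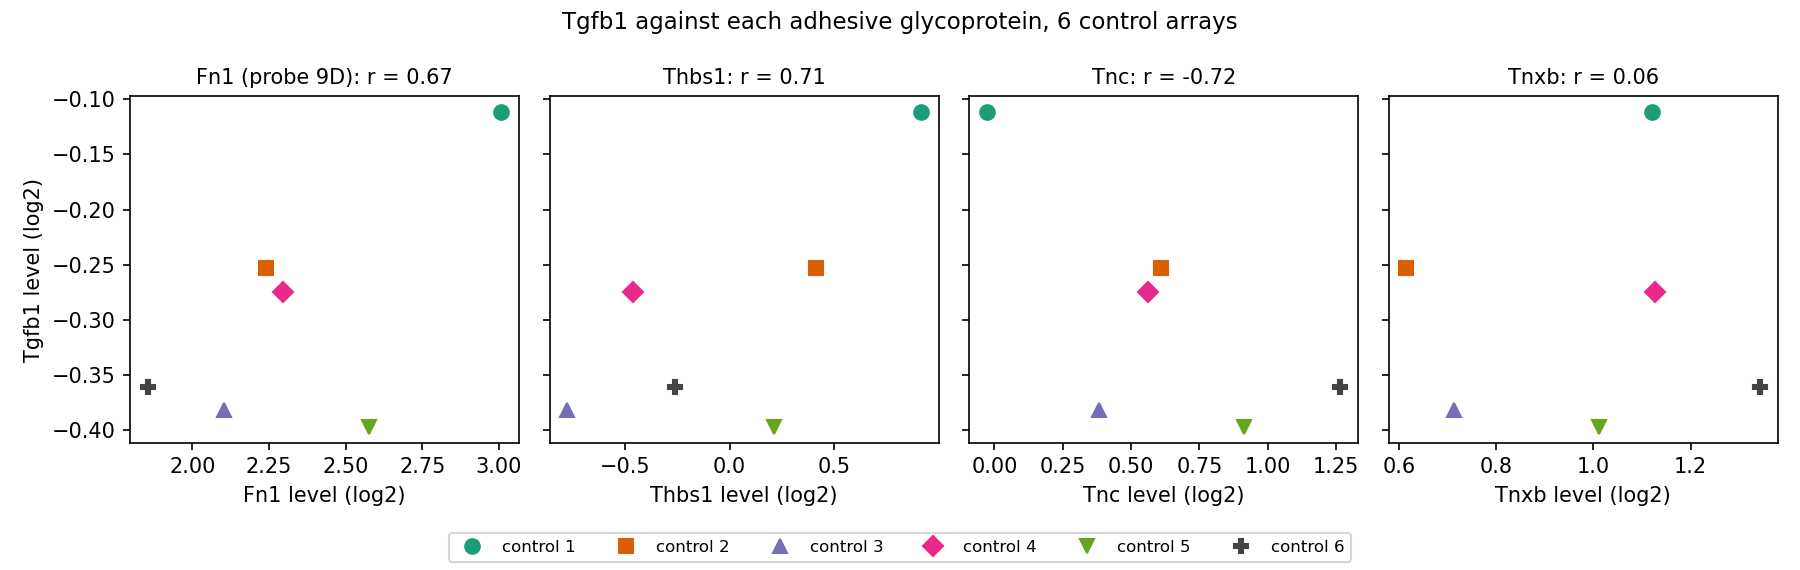
Tgfb1 level against the level of Fn1 (probe 9D), Thbs1, Tnc and Tnxb (both log2 relative to the array median), 1 symbol per control array, with Pearson's r above each panel. Control 1, at the top of every panel, lies at the right end for Fn1 and Thbs1 and at the left end for Tnc.

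Among the glycoproteins the largest coefficient was that of Fn1 with Thbs1, r = 0.76 (p = 0.0764 by exact permutation, 0.338 after adjustment) and rho = 0.60 (p = 0.242, 0.585 after adjustment). It was 0.57 without controls 1 and 6. For Fn1 and Tnc, r was -0.69 (p = 0.133 by exact permutation, 0.419 after adjustment) and rho -0.49 (p = 0.356, 0.695 after adjustment). Without controls 1 and 6 this turned to r = 0.98 over the 4 other arrays. The remaining pairs, those of Tnc with Tnxb (0.35) and Thbs1 (-0.36) and of Tnxb with Fn1 (0.03) and Thbs1 (0.03), had exact permutation p-values of 0.497 to 0.961, with adjusted p of 0.737 to 0.982. Their rho lay between -0.14 and 0.26, with exact p of 0.658 to 0.919 and adjusted p of 0.866 to 0.979. Without the 2 farthest arrays their r was 0.42, 0.72, 0.58 and -0.38, in the same order.

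Ratios within an array do not change when an array is scaled by a constant, and they show how unevenly these genes changed. The intensity of Tnc over that of Fn1 was 0.122, 0.323, 0.303, 0.301, 0.316 and 0.664 in controls 1 to 6. Controls 2 to 5 were nearly alike, control 1 lay below them and control 6 above, 5.45-fold from end to end. If every intensity is allowed to be off by the noise bound of its array, control 1 lay between 0.093 and 0.152 and control 6 between 0.614 and 0.718. The lowest and highest values this allows for controls 2 to 5 were 0.212 and 0.457, so controls 1 and 6 lay outside that range as far as this measurement error goes. The gap to the nearest array was 0.533 of the log2 range for control 1 and 0.426 for control 6. Both gaps lay under Dixon's critical value for 6 arrays, but this test cannot decide whether either array stood apart. Controls 1 and 6 lay at opposite ends, so each widened the range against which the other was judged. The fold was 2.21 without control 1 and 2.65 without control 6.

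Relative to Tgfb1, Fn1 and Tnxb had narrower ranges over the 6 arrays than Tnc and Thbs1, an order that the noise bound leaves unsettled. Within that bound, the ratio to Tgfb1 in control 2 alone could lie between 3.37 and 12.7 for Fn1 and between 0.863 and 4.84 for Tnxb. For Tnc it could lie between 0.857 and 4.83, and for Thbs1 between 0.703 and 4.34. Fn1 over Tgfb1 was 8.69, 5.63, 5.59, 5.94, 7.86 and 4.65, a 1.87-fold range, and Tnxb over Tgfb1 was 2.35, 1.83, 2.14, 2.64, 2.65 and 3.26, a 1.78-fold range. Tnc over Tgfb1 was 1.06, 1.82, 1.70, 1.79, 2.48 and 3.09, a 2.91-fold range. Without control 1 the Tnc range was 1.82-fold, close to the 1.78-fold of Tnxb. Thbs1 over Tgfb1 was 2.03, 1.58, 0.762, 0.880, 1.53 and 1.07, a 2.67-fold range. Controls 3 and 4 were the 2 lowest arrays for Thbs1 and controls 5 and 6 the 2 highest for Tnc. The ratio of Thbs1 to Tnc ran from 0.347 in control 6 to 1.92 in control 1, 5.52-fold, and 2.51-fold without control 1.

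**Figure D5:**
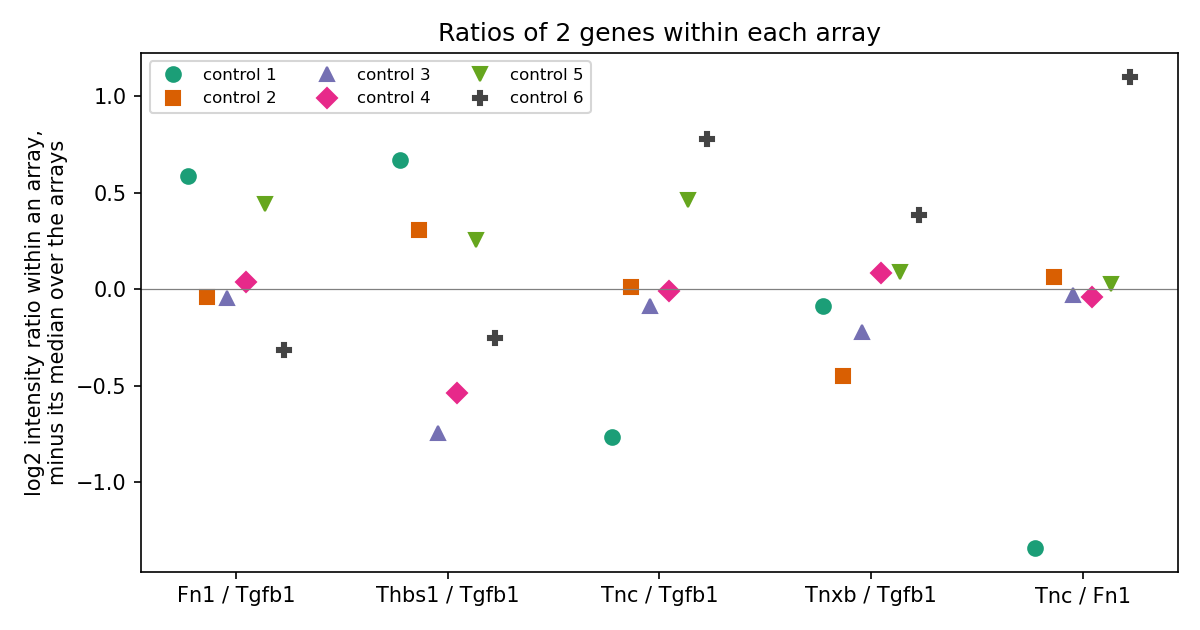
Log2 ratio of 2 genes' intensities within each array, shown minus its median over the 6 arrays, 1 symbol per control array. For Tnc over Fn1, controls 2 to 5 lie together while control 1 and control 6 lie at opposite ends, 5.45-fold apart.

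The genes whose levels ran most like each member were taken as the 3 with the highest Pearson's r over the 6 arrays, as a description with no test. For Tgfb1 they were Igfbp4, a binding protein of insulin-like growth factors (r = 0.98, rho = 0.77), the integrin subunit Itgb1 (0.94 and 0.89) and the metalloprotease inhibitor Timp1 (0.94 and 0.94). Fn1 was followed by the angiogenic factor Vegfa (0.96 and 0.83), the fibroblast receptor Pdgfra (0.89 and 0.83) and the AP-1 subunit Jund (0.89 and 0.77). Jund (0.87 and 0.94) and Vegfa (0.85 and 0.71) also stood nearest to Thbs1, followed by the myogenic factor Myod1 (0.80 and 0.77). For Tnc they were the cyclin-dependent kinase Cdk4 (0.94 and 0.83), the ribonuclease angiogenin, Ang (0.94 and 0.83), and an unnamed probe (0.86 and 0.77). For Tnxb they were Igfbp6 (0.86 and 0.94), the kinase inhibitor Cdkn2d (0.85 and 0.94) and the laminin chain Lama2 (0.81 and 0.60). Pdgfra, Cdkn2d and Lama2 were above the bound on 5 arrays and Myod1 on 4. When intensities were raised to the bound, r was 0.79 for Pdgfra, 0.83 for Myod1, 0.30 for Cdkn2d and -0.0033 for Lama2. The genes named for Tgfb1 and Fn1 were all highest in control 1, and those named for Tnc all lowest there. After quantile normalization r was 0.57 for Itgb1 with Tgfb1 and 0.74 for Vegfa with Fn1. Without control 1 it was 0.65 both for Jund with Fn1 and for Vegfa with Thbs1. Other values moved less, such as Cdk4 with Tnc, 0.88 to 0.97 with 1 array left out.

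Other genes of the pathway were few on this array. Of 7 receptors that bind these glycoproteins, 6 were above 0 on all arrays, and 4 of these were above the bound on all. Of the 6 receptors, 0 passed for larger or smaller spread, near the shares of all features (1.32% and 0.00%). Their median SD was 0.59, against 0.54 over all 152 features, from 0.11 for Egfr, which tenascin C can engage, to 1.06 for the integrin subunit Itga8, which was above the bound on only 4 arrays. Itgb1, the shared beta chain of most fibronectin receptors, had levels of 3.27, 1.83, 1.68, 2.06, 1.40 and 1.42, highest in control 1 as Fn1 was. The alpha chain Itgav, which was above the bound on 5 arrays, had -1.42, -1.87, -2.08, -2.13, -2.43 and -2.93, highest in control 1 and lowest in control 6, the arrays where Tnc was lowest and highest. Cd36, the thrombospondin receptor that also carries fatty acids, had 2.94, 4.80, 3.43, 4.08, 3.25 and 3.85, with its lowest level in control 1, where Thbs1 was highest.

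Of 8 other matrix genes on the array, 7 were above 0 on all arrays, and 2 of these were above the bound on all. The median SD of the 7 was 0.63. Lama3, a laminin chain, was the 1 gene of them called for excess spread, with an SD of 3.20 (adjusted p = 0.00852 in limma), against 1.32% of all features. It was above the bound on 5 arrays, and its level of -5.57 in control 2 lay below it. Without control 2 its SD was 1.96 (adjusted p = 0.827 in limma), and the call was also lost after quantile normalization, cyclic loess, with the noise bound added, and with a prior without robust estimation or trend (adjusted p of 0.103 to 0.762 in limma). The smallest SD was that of the laminin chain Lamb2, 0.25. Thbs2, the closest relative of Thbs1 on the list, was above the bound on 5 arrays and had levels of -0.82, -3.46, -2.18, -2.72, -2.26 and -2.74. Control 1 was the highest for Thbs2 and for Lamc1, but for none of the other matrix genes above 0 on all arrays. It was the lowest for Lamb2. Of 27 listed genes of TGF-beta signalling other than Tgfb1, the array held 1, the antagonist follistatin (Fst), whose SD was 1.28 and which was above the bound on 5 arrays.

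The slow muscle genes Myh7 and Mb were above the bound on all 6 arrays, as were the fast myosins Myh2, Myh1 and Myh4, so detection marks the tissue as skeletal muscle without telling soleus from another muscle. Matrix glycoproteins come largely from non-muscle cells, and the array held few of their markers. Of 6 fibroblast markers it held Pdgfra alone, with levels of -0.44, -2.57, -2.18, -2.35, -2.07 and -2.68, highest in control 1 as were Fn1, Thbs1 and Tgfb1. Its intensity ranged from 0.0024 to 0.0119. Of 4 tendon, 3 platelet and 3 nerve markers the array held 0. Of 7 endothelial markers 5 were above 0 on all arrays, and 4 of these were above the bound on all. Pecam1, Cdh5 and Flt1 were lowest in control 1. Kdr was second highest there (0.30, against 0.53 in control 2), and Tek was highest there by less than 0.01. Of 7 immune markers 1 was measured, Csf2rb, which was above the bound on 4 arrays. Of 4 adipocyte markers the array held Fabp4, above the bound on all 6 arrays and highest in control 2 (3.39, against 2.53 in control 1). Of 4 satellite cell markers it held 3. Myod1, above the bound on 4 arrays, was highest in control 5, and Myog, above it on all 6, was highest in control 2. The arrays differed as well, with at most 143 probes above the bound in controls 1 and 2 and at least 163 in controls 5 and 6. The share of the summed intensity in the 10 brightest probes was at least 81.3% in controls 1 and 2 and at most 76.6% in the latter pair. The part of fibroblast content or of these array differences in the levels above was not tested.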

How the data were processed

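The deposited table gave 1 linear intensity per probe for 6 arrays, with values below 0 on each. How the authors obtained these intensities (scanner, background, scaling) is not given in the sources used here. Array medians ran from 0.0053 to 0.0277, so the deposited intensities were not on a common level, and each array was centred after log2. Probes were named through the platform annotation, with 1 gene for 205 probes, several for 0 and none for 18. Of 205 gene identifiers, 204 were found in the GRCm38.p6 gene table, and 0 symbols changed. Probes above 0 on all 6 arrays were kept (153, or 152 features after averaging the 2 Igf1 probes).

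One-sided F tests of spread came from R 4.3.3 (limma 3.58.1, using statmod 1.5.0) and a robust prior variance that followed intensity and had 6.12 degrees of freedom. Relations were tested two-sided by exact permutation in Python 3.11.15. Both used Benjamini-Hochberg adjustment over the whole table and a threshold of 0.05. Both steps were tested on simulated data. Named genes were the members, the 3 genes most like each, and the most and least variable genes of each list. Other genes, the within-array ratios and the promoter stretches and motifs were chosen after values were seen. The members and lists were chosen with earlier results of these data known. Alternatives covered scaling, filters, noise-bound handling, the prior, rank correlation and left-out arrays. The number of arrays and the signal over background limit the precision.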

Additional observations from a re-analysis of the deposited data

How the results depend on the processing

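The 10 relations among members passed the test under none of the settings tried. No single pair could pass this test on its own, so relations are not shown to be absent. With 1 array left out there were fewer pairings, and the smallest possible p was larger. Detection of 5 member probes did not change with a bound of 3 times the median size of the intensities below 0. Signs changed as follows. Without centring, r was 0.79 for Tnc with Tgfb1, 0.57 for Fn1 with Tnc and 0.33 for Tnc with Thbs1. After quantile normalization it was -0.14 for Tnxb with Tgfb1 and -0.083 for Tnc with Tnxb. With the noise bound added it was -0.19 for Tnxb with Tgfb1 and -0.034 for Tnxb with Thbs1. Spearman's rho was -0.086 for Fn1 with Tnxb and -0.14 for Tnxb with Thbs1. With intensities raised to the bound, r of Lama2 with Tnxb was -0.0033.

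With 1 array left out, r ranged from -0.019 to 0.94 for Fn1 with Tgfb1, from -0.96 to -0.32 for Tnc with Tgfb1, from -0.26 to 0.31 for Tnxb with Tgfb1 and from 0.29 to 0.90 for Thbs1 with Tgfb1. It ranged from -0.86 to -0.28 for Fn1 with Tnc, from -0.27 to 0.62 for Fn1 with Tnxb, from 0.45 to 0.86 for Fn1 with Thbs1, from -0.22 to 0.76 for Tnc with Tnxb, from -0.67 to 0.31 for Tnc with Thbs1 and from -0.41 to 0.35 for Tnxb with Thbs1.

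The 2 genes with excess spread, neither a member, became 1 with the looser filter and with values raised to the bound. They became 0 after quantile normalization, cyclic loess, the noise-bound filter, the added bound, and a prior without robust estimation or without trend, and ranged from 0 to 2 with 1 array left out. Reduced spread was called for 1 feature after quantile normalization, the brightest probe, which that method brings to nearly the same value on all arrays, and for 1 after cyclic loess, Cox4i1. The cause of the other changes was not tested. No paired analysis was possible because the samples form 1 group. The number of arrays and signals near the bound, such as Tgfb1 at 1.94 times the bound in control 2, limit the precision.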

Other observations

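The genes that ran most against each member were read off after their values were seen and are given as a description over the 6 arrays. For Tgfb1 it was Flt1, a receptor of vascular endothelial growth factor, with levels of -1.33, -1.03, -0.26, -0.60, -0.04 and -0.28 in controls 1 to 6 (r = -0.96, rho = -1). The order of the arrays by Flt1 was thus the reverse of their order by Tgfb1. Flt1 was picked as the most negative r of 151 features. The Tgfb1 levels of controls 2 to 6 lay between -0.40 and -0.25, from intensities of 1.94 to 6.94 times the bound. The noise bound leaves their order unsettled. For Tnc it was Itgav (r = -0.95, rho = -0.83), for Thbs1 the retinoblastoma gene Rb1 (-0.82 and -0.94) and for Tnxb the fatty acid carrier Fabp3 (-0.83 and -0.66). For Fn1 it was the unnamed probe 19C (-0.86 and -0.60), which was also among the 3 features most like Tnc. Tgfb1 had r above 0 with 96 of the 151 other features (63.6%), Fn1 with 86 (57.0%) and Thbs1 with 85 (56.3%). Tnxb had r above 0 with 76 (50.3%) and Tnc with 60 (39.7%). Among all pairs the share was 52.7%, and these counts were not tested.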
